A study of Mus musculus with 8 samples.

Results

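Matrix metalloproteinases (MMPs), ADAMTS proteases with their ADAMTS-like relatives, and tissue inhibitors of metalloproteinases (TIMPs) were followed in fat macrophages that either held or lacked mitochondria from adipocytes. Members were the protein-coding genes whose symbols begin with Mmp and a digit or with Adamts, or read Timp1 to Timp4, in the GENCODE M21 annotation of the mouse build GRCm38. This gave 50 of the 41388 genes in the tables: 22 MMP, 19 ADAMTS, 5 ADAMTS-like and 4 TIMP genes. RNA came from macrophages of the epididymal white fat pad of 4 male mice fed normal chow. All carried MitoFat, a reporter that marks mitochondria of adipocytes only, and the sources used here give neither their age nor the promoter behind the reporter. Live cells positive for CD45, F4/80 and CD64 were sorted from each mouse into cells with the reporter signal (mtD2+) and cells without it (mtD2-), which gave 8 libraries in 4 pairs, each library from 1 mouse. The libraries held 18462287 to 27464399 gene-assigned counts. All 12 macrophage marker genes looked up passed the low-count filter, with a summed level of 18380 to 22330 CPM in mtD2+ and 21410 to 25620 CPM in mtD2- (CPM, counts scaled to the size of the library as in the edgeR test). Among them Mertk rose, and Adgre1, which encodes F4/80, and C1qb fell, against 3.72% rising and 1.78% falling over all tested genes. The list had 0 calls without the mouse block or without mouse 1, 3 or 4, 0 higher and 2 lower without mouse 2, and 0 higher and 4 lower with library totals alone.

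MMPs are zinc proteases that are made as inactive precursors and cut collagens, elastin, basement membrane proteins and many signalling proteins once their propeptide is removed. ADAMTS proteases use the same kind of zinc centre and are secreted. Among them are proteases that trim procollagens, cut large proteoglycans such as versican and aggrecan, or cut von Willebrand factor. The ADAMTS-like proteins keep the matrix-binding repeats without a protease domain. TIMPs bind the zinc centre and block it. In adipose tissue these genes take part in remodelling of the matrix around growing fat cells and vessels, and fibroblasts, adipocyte precursors, vessel cells and macrophages each express a different set of them.

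The zinc centre is held by 3 histidines spaced along a short stretch of protein. The longest complete coding sequence of each member in GENCODE M21 was searched for a fixed pattern of this stretch. The stretch was found in all 22 MMP genes and in 18 of 19 ADAMTS genes, and in 0 of 5 ADAMTS-like and 0 of 4 TIMP genes. The search allowed glycine or asparagine at the position between the second and the third histidine, so a site with another residue there would be missed. The ADAMTS gene without a match was Adamts8, and whether it has such a site was not tested. All 22 MMP genes and 13 ADAMTS genes had glycine there, and 5 ADAMTS genes had asparagine. The coding bases of the site are shown for the members with most RNA in these macrophages and for those on which the comparisons turn, 5′ to 3′ on the coding strand, with the histidine codons in capitals.
Mmp9: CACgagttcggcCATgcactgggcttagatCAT
Mmp12: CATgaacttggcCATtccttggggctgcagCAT
Mmp13: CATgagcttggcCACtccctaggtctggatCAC
Mmp19: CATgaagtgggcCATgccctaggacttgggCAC
Adamts10: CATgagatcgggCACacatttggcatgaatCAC
Adamts2: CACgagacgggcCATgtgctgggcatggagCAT
Adamts1: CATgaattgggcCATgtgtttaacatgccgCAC
The MMP sites each lie within 1 exon: chr2:164951133-164951165 in exon 8 of Mmp9, chr9:7352914-7352946 in exon 5 of Mmp12, chr9:7276573-7276605 in exon 5 of Mmp13 and chr10:128795673-128795705 in exon 5 of Mmp19, all on the plus strand of GRCm38. The ADAMTS sites are split by an intron. They span exons 9 and 10 of Adamts10 (chr17:33538157-33538279, plus strand), exons 7 and 8 of Adamts2 (chr11:50775403-50776134, plus strand) and exons 3 and 4 of Adamts1 (chr16:85799191-85799545, minus strand). Of the 33 bases, Mmp12 and Mmp13 share 25, as do Adamts2 and Mmp9, and Adamts10 and Mmp19 share 18.

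Of the 22 MMP genes, 9 lie side by side on chromosome 9 between 7272514 and 7699585. Their promoters were searched for the AP-1 element, the binding motif of Fos and Jun dimers that is known from collagenase and stromelysin promoters (TGANTCA, which reads the same on both strands, searched from 250 bases before to 50 bases after each RefSeq start on GRCm38.p6). The RefSeq table matched 35 of the 50 members with 38 promoters. Mmp9, Mmp2, Mmp19 and Adamts10 were among the members without a match, so their promoters were not searched. The element was found in 7 of these, 18.4%, against 7.81% of all 32851 promoters, and all 7 belonged to the chromosome 9 genes. The windows below show the element in capitals with 20 bases on either side, on the coding strand.
Mmp13: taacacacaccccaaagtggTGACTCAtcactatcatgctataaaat
Mmp12: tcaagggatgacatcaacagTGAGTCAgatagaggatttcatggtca
Mmp3: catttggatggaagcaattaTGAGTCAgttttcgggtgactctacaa
Mmp10: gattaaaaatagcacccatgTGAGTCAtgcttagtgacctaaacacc
Mmp7: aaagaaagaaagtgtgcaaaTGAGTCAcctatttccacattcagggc
Mmp1b: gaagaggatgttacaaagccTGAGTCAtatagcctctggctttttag
Mmp20: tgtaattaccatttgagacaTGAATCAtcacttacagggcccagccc
In GRCm38 the windows are chr9:7272459-7272505 for Mmp13, chr9:7347310-7347356 for Mmp12, chr9:7445756-7445802 for Mmp3, chr9:7502259-7502305 for Mmp10, chr9:7692007-7692053 for Mmp7 and chr9:7628116-7628162 for Mmp20, all on the plus strand, and chr9:7388093-7388139 on the minus strand for Mmp1b. The element began 35, 44 and 46 bases before the start of Mmp13, Mmp12 and Mmp3, and farther out in the other 4. Mmp12 has 2 listed starts and the element was found at 1 of them. A second motif, PEA3 (AGGAAG or its complement, bound by Ets factors), was in 39.5% of the members' promoters and in 35.4% of all promoters. Of these 7 genes, only Mmp12, macrophage elastase, and Mmp13, a collagenase, had enough RNA to be tested. Mmp3 had counts in 2 libraries, 30 in mtD2+ of mouse 3 and 13 in mtD2- of mouse 1, and Mmp10, Mmp7, Mmp1b and Mmp20 had 0 counts in all 8 libraries.

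Per gene length the family was led by an inhibitor and a gelatinase. Timp2, an MMP inhibitor that also helps to activate the Mmp2 precursor, stood at 98.1 ± 7.44 RPKM in mtD2+ and 113 ± 14.4 RPKM in mtD2- (deposited reads scaled to gene length and library total, SD, n = 4). Mmp9, the gelatinase of myeloid cells, stood at 40.2 ± 8.44 RPKM in mtD2+ and 49.1 ± 7.08 in mtD2-, and in each library it was below Timp2. Adamts10, a protease that binds fibrillin, followed with 16.2 ± 3.59 and 15.1 ± 4.60 RPKM, and its libraries did not overlap those of Mmp9. Timp2, Mmp9 and Adamts10 together took 69.9 to 84.4% of all counts of the family in a library. Behind them Mmp19 (6.83 ± 4.57 and 4.97 ± 2.66 RPKM in mtD2+ and mtD2-), Adamtsl4 (6.95 ± 0.998 and 3.99 ± 0.679) and Adamtsl5 (5.74 ± 1.33 and 6.00 ± 1.47) overlapped one another in both populations. At the other end, 23 members did not pass the low-count filter. Of these, 8 had 0 counts in every library: Adamts8, Adamts17, Adamts19, Adamts20, Mmp1b, Mmp7, Mmp10 and Mmp20. The other 15 had counts in at least 1 library and at most 79 in any: Adamts3, Adamts7, Adamts9, Adamts12, Adamts16, Adamts18, Adamtsl2, Mmp3, Mmp8, Mmp15, Mmp16, Mmp17, Mmp24, Mmp27 and Mmp28. Some of these counts sat in a single library or a pair of libraries, such as Adamts16 with 23 and 30 counts in mtD2+ of mice 3 and 4 and at most 1 in any other.

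**Figure D1:**
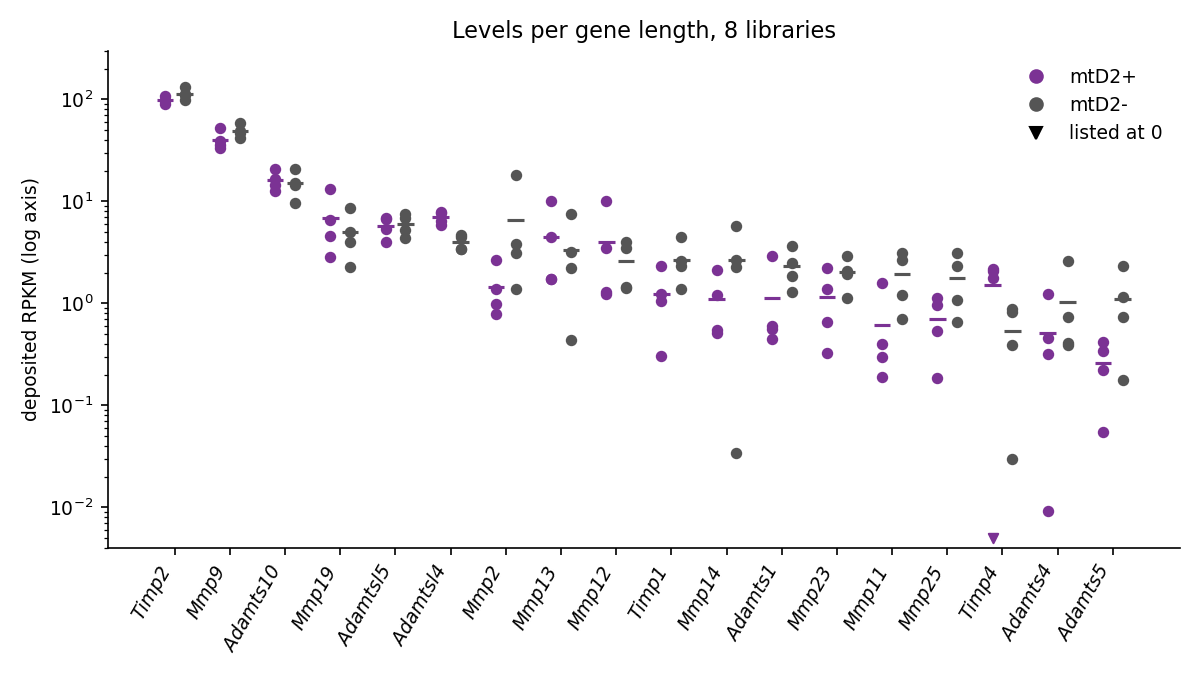
Deposited RPKM on a log axis for the 18 tested members with the highest mean, 1 point per library, mtD2+ (purple) left of mtD2- (grey), with the group mean as a bar and a value listed at 0 drawn as a triangle at the bottom. Timp2 and Mmp9 lie above the rest in every library, Adamts10 has the next highest group means, and from Mmp2 rightward the libraries of a group lie several-fold apart.

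Between the populations, 2 of the 27 tested members passed an adjusted p of 0.05: Adamts2 fell and Adamtsl4 rose in mtD2+ macrophages. That is 7.41% of the tested members, against 5.50% of all 13933 tested genes, so the share called was near the background. By direction, 3.72% of all tested genes rose and 1.78% fell. Without adjustment 9 members had a p under 0.05, 7 of them lower in mtD2+ and 2 higher, against 11.0% lower and 11.8% higher over all genes. Of the 27, 17 had a log2 fold change below 0, against 50.1% of all genes. Their median was -0.69 and that of all tested genes 0.00, and 12 members but 3.74% of all genes were below -1. In the other direction, Adamts14, Timp4 and Mmp21 were above 1, at 1.71, 1.65 and 1.19 (SE 0.96, 1.60 and 1.53). A gene that is expressed in a single group can pass the filter through that group alone. Adamts15 did so, being over the filter in 4 mtD2- libraries and 0 mtD2+ libraries. Adamtsl3 was over it in 3 mtD2- libraries and 1 mtD2+ library, while 0 tested members were over it in fewer than 2 mtD2- libraries. Adamts15 and Adamtsl3 are both counted among the lower members, so neither the median nor these counts measure all 50 members. In 3 members, Adamts2, Adamts15 and Adamtsl1, every mtD2+ library was below every mtD2- library (6.01% of all genes), and in Adamtsl4 every mtD2+ library was above (6.55% of all genes). In sorted bulk RNA, fewer cells of a type and less RNA per cell cannot be told apart.

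**Figure D2:**
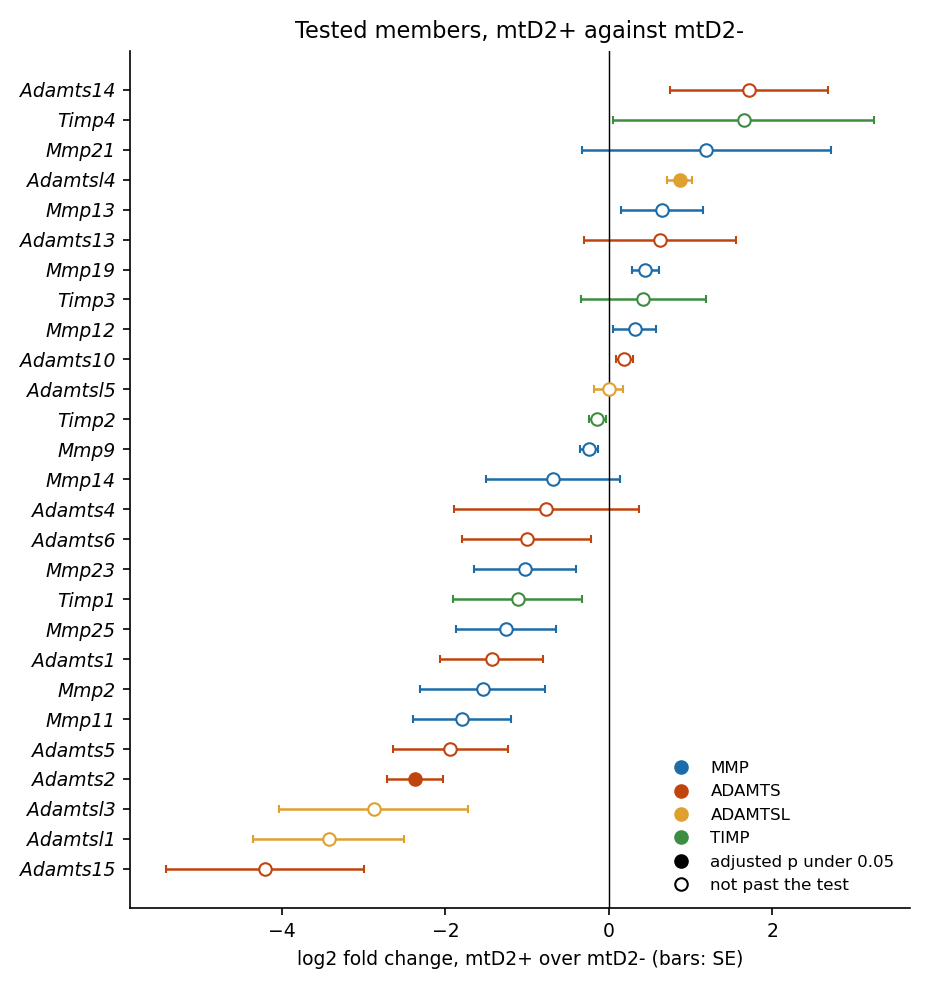
Log2 fold change of mtD2+ over mtD2- with its SE for the 27 tested members, coloured by subfamily. Filled points passed an adjusted p of 0.05, which Adamts2 at -2.37 and Adamtsl4 at 0.87 did, and the widest bars belong to members with few counts.

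Adamts2 cuts the amino-terminal propeptide from fibrillar procollagens, the step that lets type I and type III collagen assemble into fibrils. The gene, ENSMUSG00000036545, lies on chromosome 11 from 50602084 to 50807573. Its level was 2.51, 2.00, 2.57 and 0.905 CPM in mtD2+ macrophages of mice 1 to 4, and at 9.16, 13.5, 10.1 and 7.04 CPM in their mtD2- partners. Every mtD2+ library lay below every mtD2- library. The change was a 5.16-fold fall (log2 fold change -2.37, SE 0.34, edgeR adjusted p = 0.00768). In counts this rests on 16 to 58 reads per mtD2+ library and 153 to 357 per mtD2- library. Without mouse 2 the adjusted p was 0.0515 at a log2 fold change of -2.24, and without mouse 1, 3 or 4 the gene stayed called.

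RNA of other matrix genes and of fibroblasts moved the same way. Of 25 tested matrix substrates of these proteases, 14 fell and 0 rose (median log2 -1.74, against 1.78% falling and a median of 0.00 over all genes), with Col1a2 at -2.56, Col1a1 at -2.51, Col6a1 at -2.47 and Col3a1 at -2.16 (SE 0.14 to 0.21), which encode chains of type I, type VI and type III collagen. Of 17 tested fibroblast and preadipocyte markers, whose cells the sort gate should leave out, 8 fell and 0 rose. On both lists are 7 genes: Col1a1, Col1a2, Col3a1, Col6a3, Dcn, Fbn1 and Lum. All of these but Fbn1 were called lower, so most of the 8 are also counted among the 14. Of the 8 markers, only Pdgfra and Gsn are not on the substrate list. Without the mouse block 8 substrates and 5 fibroblast markers fell, and without mouse 1 the counts were 9 and 6. The fibroblast markers summed to 831.1, 938.5, 646.8 and 899.7 CPM in mtD2+ of mice 1 to 4. In mtD2- they summed to 2018, 1867, 1872 and 4700 CPM, and none of the 18 markers was at 0 counts throughout. Of these sums, Gsn made up 521.7, 666.5, 391.7 and 628.3 CPM in mtD2+ and 1094, 966.8, 1040 and 3269 CPM in mtD2-. In each mouse the sum and Adamts2 were both lower in mtD2+, by log2 ratios of -1.28, -0.99, -1.53 and -2.39 for the sum and -1.87, -2.75, -1.98 and -2.96 for Adamts2. The part of these cells in the Adamts2 result was not tested.

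Adamtsl4, a secreted protein that binds fibrillin-1 and is known for its role in the lens suspension of the eye, was the member that rose. The gene, ENSMUSG00000015850, lies on chromosome 3 from 95676201 to 95687917. Its level was 33.2, 27.4, 33.0 and 25.6 CPM in mtD2+ of mice 1 to 4, against 19.2, 13.35, 17.5 and 15.5 CPM in mtD2-. Each mtD2+ library was above all mtD2- libraries, and the spread within a population was small (29.8 ± 3.89 CPM in mtD2+ and 16.4 ± 2.53 CPM in mtD2-, SD, n = 4). The rise was 1.82-fold (log2 0.87, SE 0.16, edgeR adjusted p = 0.0176). Its size changed little on leaving out a mouse (0.81 to 0.91), but the adjusted p was 0.0800, 0.0762 and 0.0823 without mouse 1, 2 or 3 and 0.0311 without mouse 4. The fibroblast sum was lower in mtD2+ of all 4 mice, and the part of fibroblasts in the Adamtsl4 values was not tested.

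**Figure D3:**
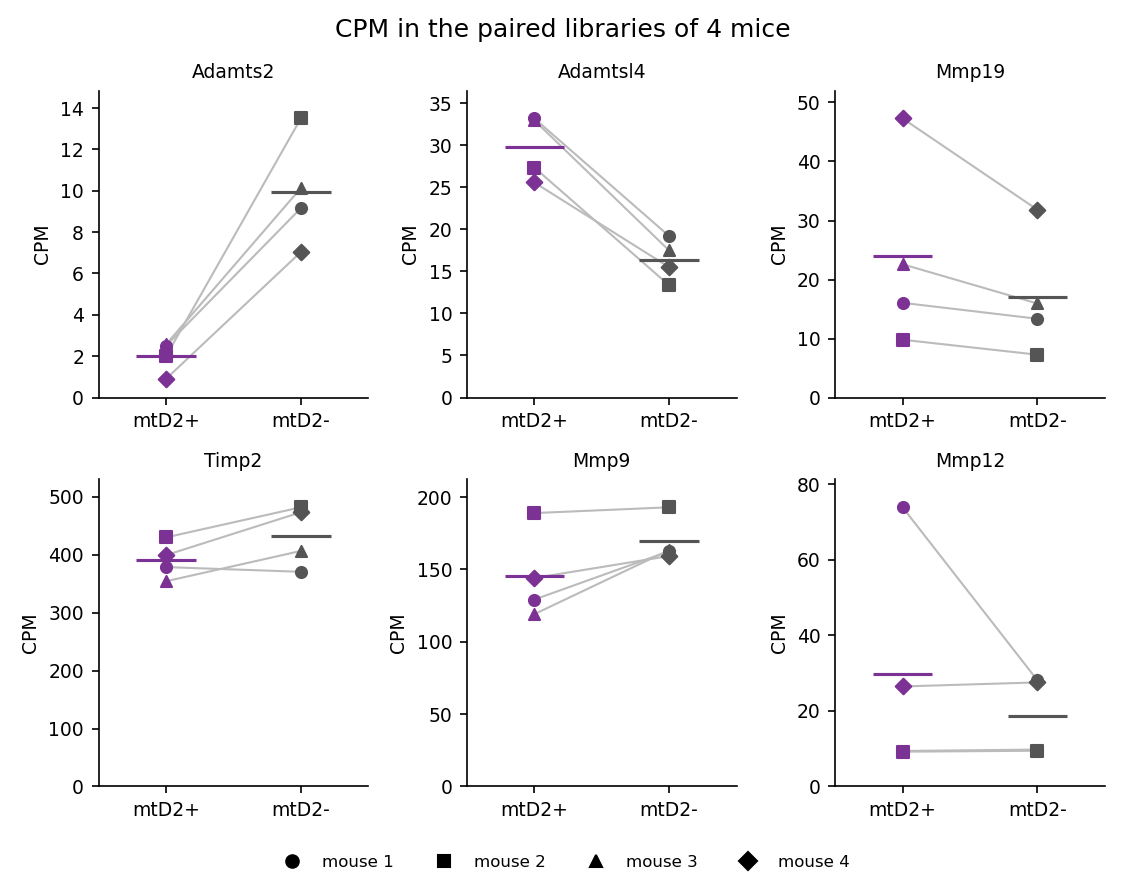
CPM of 6 members in mtD2+ (left) and mtD2- (right) libraries, with a line joining the 2 libraries of a mouse, a symbol for each mouse and a bar at each group mean. The groups separate for Adamts2 and Adamtsl4, overlap for Timp2, Mmp9 and Mmp12, and for Mmp19 every line is higher on the mtD2+ side while the mice differ more than the populations do.

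The other ADAMTS-like genes gave no call. Adamtsl5, another fibrillin-binding protein, was as abundant as Adamtsl4 yet had nearly the same mean in both populations, 27.6 ± 6.22 CPM in mtD2+ and 27.5 ± 5.25 CPM in mtD2- (log2 0.00, SE 0.17, adjusted p = 0.991). Adamtsl1, also called punctin-1, was at 1.09, 0.00, 0.886 and 0.283 CPM in mtD2+ and at 1.92, 2.50, 10.7 and 4.14 CPM in mtD2- (log2 -3.43, SE 0.92, adjusted p = 0.0676). Its libraries did not overlap, but mtD2+ held at most 24 reads of it. Adamtsl3 had at most 16 reads in an mtD2+ library and at most 80 in an mtD2- library (log2 -2.88, SE 1.16, adjusted p = 0.195).

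Adamts15, Adamts5, Adamts1 and Adamts4, which cut proteoglycans and were tested, had lower means in mtD2+ and did not pass the test. Adamts15 was at 0.137, 0.297, 0.00 and 0.0566 CPM in mtD2+ and at 3.46, 0.718, 5.47 and 0.966 CPM in mtD2-, which is 0 to 8 reads against 19 to 130 (log2 -4.21, SE 1.21, adjusted p = 0.0805). Adamts5, an aggrecanase, was at 0.456, 1.82, 2.75 and 3.56 CPM in mtD2+ and at 5.81, 8.70, 1.35 and 20.65 CPM in mtD2-. Mouse 3 ran against the other 3 mice. The fitted log2 value was -1.94 (SE 0.71, adjusted p = 0.147) with all mice and -2.74 (adjusted p = 0.0300) without mouse 3. Without mouse 1, 2 or 4 the edgeR adjusted p was 0.376, 0.328 and 0.371, so the call came only with the opposing mouse left out. Its neighbour on chromosome 16, Adamts1, a versican-cutting protease, was at 2.42, 15.6, 3.01 and 3.34 CPM in mtD2+ and at 12.85, 6.39, 9.21 and 20.8 CPM in mtD2-. Here mouse 2 ran against the others, and the fitted log2 value was -1.43 (SE 0.63, adjusted p = 0.219) with it and -2.22 (adjusted p = 0.0350) without it. Without mouse 1, 3 or 4 the edgeR adjusted p was 0.510, 0.449 and 0.504, so again only leaving out the opposing mouse gave a call. Adamts4, another aggrecanase, spanned 0.0443 to 6.12 CPM in mtD2+ and 1.85 to 11.9 CPM in mtD2-, with a direction that turned to 0.27 without mouse 3 (log2 -0.76, SE 1.13, adjusted p = 0.738).

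The remaining ADAMTS genes did not pass the test either. Adamts10 was higher in mtD2+ of all 4 mice, at 93.0, 79.6, 114.6 and 72.4 CPM against 80.4, 73.0, 107.5 and 57.6 CPM in mtD2- (log2 0.19, SE 0.11, adjusted p = 0.335). In deposited RPKM mouse 2 was at 14.33 in mtD2+ and 14.36 in mtD2-, so its direction depends on the scaling. Adamts14, which trims procollagen as Adamts2 does, was also higher in mtD2+ of all 4 mice, but at 0.566 to 2.39 CPM against 0.0420 to 1.39 CPM in mtD2- (log2 1.71, SE 0.96, adjusted p = 0.331). Being higher in all 4 mice was met by 16.3% of all tested genes. Adamts6 had a log2 fold change of -1.01 (SE 0.79), and Adamts13, the protease of von Willebrand factor, one of 0.63 (SE 0.93) at no more than 18 reads in any library.

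Among the gelatinases, Mmp9 was lower in mtD2+ of all 4 mice by a small margin and did not pass the test. It was at 129, 189, 119 and 144 CPM in mtD2+ and at 163, 193, 163 and 159 CPM in mtD2- (log2 -0.24, SE 0.11, adjusted p = 0.247). Being lower in all 4 mice was met by 16.0% of all tested genes. Neutrophils also store Mmp9 protein. Their 14 markers summed to 79.5 to 134.8 CPM over the mtD2+ libraries and 65.2 to 85.9 CPM over the mtD2- libraries, of which Csf3r made up 56.9 to 81.3 CPM per library, and Ly6g and Stfa2l1 had 0 counts in all. The highest sum was in mtD2+ of mouse 4, where Ngp was at 18.8 CPM, S100a8 at 10.5, S100a9 at 7.02, Ltf at 3.90 and Camp at 3.79, against at most 0.265, 2.82, 0.841, 0.273 and 0.223 CPM in any other library. The part of neutrophils in the Mmp9 values was not tested. Mmp2, the gelatinase typical of fibroblasts, was at 4.33, 3.08, 8.15 and 2.49 CPM in mtD2+ and at 11.2, 8.92, 3.91 and 59.5 CPM in mtD2-. The mtD2- library of mouse 4 was far above the others, and mouse 3 ran the other way (log2 -1.54, SE 0.76, adjusted p = 0.270, and -2.40 without mouse 3 or -0.66 without mouse 4). Mmp14, the membrane protease that activates the Mmp2 precursor, showed the same 2 features, with 16.1 CPM in mtD2- of mouse 4 and 0.0841 CPM in mtD2- of mouse 3, against 1.37 to 5.77 CPM over the mtD2+ libraries (log2 -0.69, SE 0.82, adjusted p = 0.666, and -0.04, -1.49 and -0.25 without mouse 1, 3 or 4).

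Mmp19, which cuts basement membrane and aggrecan, had a higher level in mtD2+ of each mouse, yet the mice differed more than the populations. It was at 16.1, 9.80, 22.6 and 47.3 CPM in mtD2+ of mice 1 to 4, against 13.35, 7.26, 15.9 and 31.8 CPM in mtD2-. Both populations of mouse 4 were highest and both of mouse 2 lowest. The log2 fold change was 0.44 (SE 0.16, unadjusted p = 0.0244 and adjusted p = 0.151 by edgeR), and it lay between 0.40 and 0.50 on leaving out any mouse. Of its exon bases, 23.1% overlap Tmem198b on the opposite strand, so without a known strand setting some of its reads cannot be told apart from that gene's.

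Mmp12 and Mmp13 also followed the mouse. Mmp12, the elastase named after macrophages, was at 73.9, 9.20, 9.39 and 26.5 CPM in mtD2+ and at 28.1, 9.45, 9.76 and 27.55 CPM in mtD2-. In mice 2, 3 and 4 its 2 libraries were within 0.06 on the log2 scale, while in mouse 1 mtD2+ was higher by 1.39, so the fitted 0.32 (SE 0.26, adjusted p = 0.521) became -0.05 without mouse 1. Mmp13 was at 27.6, 4.71, 4.61 and 12.6 CPM in mtD2+ and at 8.31, 1.10, 5.59 and 21.85 CPM in mtD2- (log2 0.65, SE 0.50, adjusted p = 0.479). For both genes the libraries of mice 1 and 4 were above those of mice 2 and 3 in each population.

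The other MMPs were low. Mmp11, a stromelysin cut to its active form inside the cell, was at 1.05, 4.12, 0.487 and 0.792 CPM in mtD2+ and at 1.77, 6.43, 2.90 and 8.65 CPM in mtD2- (log2 -1.80, SE 0.60, adjusted p = 0.117). It was lower in mtD2+ of all 4 mice, as was Mmp25, a membrane-anchored leukocyte protease, at 0.620 to 3.96 CPM against 2.16 to 11.45 CPM in mtD2- (log2 -1.25, SE 0.61, adjusted p = 0.263). Mmp23 ranged over 0.792 to 5.18 CPM in mtD2+ and 2.48 to 6.35 CPM in mtD2- (log2 -1.03, SE 0.62), and Mmp21 had at most 27 reads in a library (log2 1.19, SE 1.53).

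Of the 4 TIMP genes, 0 passed the edgeR test, 0 had an unadjusted p under 0.05, and 0 were called by DESeq2 or limma voom. Timp2 was at 379, 430, 354 and 399 CPM in mtD2+ and at 371, 482, 407 and 473 CPM in mtD2-, with overlapping groups (log2 -0.14, SE 0.10, adjusted p = 0.446). Timp1, the inducible inhibitor, was at 2.10, 1.11, 0.930 and 0.283 CPM in mtD2+ and at 2.00, 1.13, 2.19 and 4.28 CPM in mtD2-, with near-equal pairs in mice 1 and 2 and lower mtD2+ values in mice 3 and 4 (log2 -1.12, SE 0.79, adjusted p = 0.445). Timp3, the matrix-bound inhibitor of ADAMTS proteases and Adam17, was at 2.28, 14.2, 2.04 and 6.51 CPM in mtD2+ and at 4.23, 1.06, 3.83 and 4.74 CPM in mtD2- (log2 0.42, SE 0.77, or -0.45 without mouse 2). Timp3 shares 21.3% of its exon bases with Syn3 on the opposite strand. Timp4 had 0 to 84 reads in mtD2+ and 1 to 29 in mtD2- (log2 1.65, SE 1.60, adjusted p = 0.584, and 2.84 without mouse 3 or 0.48 without mouse 4).

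In each population 1 library was the highest for several members. Of the tested members, the mtD2+ library of mouse 2 had the highest level of its group for Adamts1, Timp3, Adamts4 and Mmp11. The same held for Timp2, Mmp9, Adamtsl5, Adamtsl3, Adamts15 and Timp4. It was the lowest of its group for Mmp12, Mmp19, Adamts6 and Adamtsl1. Of members not tested, it held 29 reads of Adamts9, 44 of Adamts12 and 22 of Adamtsl2, against at most 5, 0 and 0 in the other mtD2+ libraries. In the same library the summed endothelial markers were at 239.9 CPM, against 150.8, 74.55 and 173.0 CPM in mtD2+ of mice 1, 3 and 4. Fabp4 alone made up 187.9 CPM of that sum in mouse 2, and 130.1, 61.17 and 138 CPM in mice 1, 3 and 4. The summed pericyte and smooth muscle markers were at 52.8 CPM in mtD2+ of mouse 2, against 18.5, 13.6 and 21.4 CPM. Of the tested members, the mtD2- library of mouse 4 had the highest level of its group for Mmp2, Mmp11, Mmp13, Mmp14, Mmp19, Mmp21 and Mmp25. The same held for Adamts1, Adamts5, Adamtsl3, Timp1 and Timp3, and for the fibroblast marker sum. It was the lowest of its group for Adamts2 (7.04 CPM, against 9.16, 13.5 and 10.1 CPM), Adamts6, Adamts10, Adamts13, Adamtsl5, Mmp9 and Timp4. Over the lists for adipocytes, endothelium, mesothelium, pericytes, mast cells and neutrophils, 0 of 47 tested markers passed the edgeR test. Without adjustment 8 were higher and 2 lower in mtD2+ at a p under 0.05, against 11.8% and 11.0% of all tested genes. DESeq2 called 7 higher and 1 lower, and limma voom 0. Of lymphocyte and dendritic cell markers, 1 of 8 each fell, Cd79b and Batf3, against 1.78% of all tested genes. The lymphocyte list had 0 calls without the mouse block or without mouse 1, 2 or 3, and the dendritic list had 0 without any 1 mouse. The part of these cell types in the members' values was not tested.

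**Figure D4:**
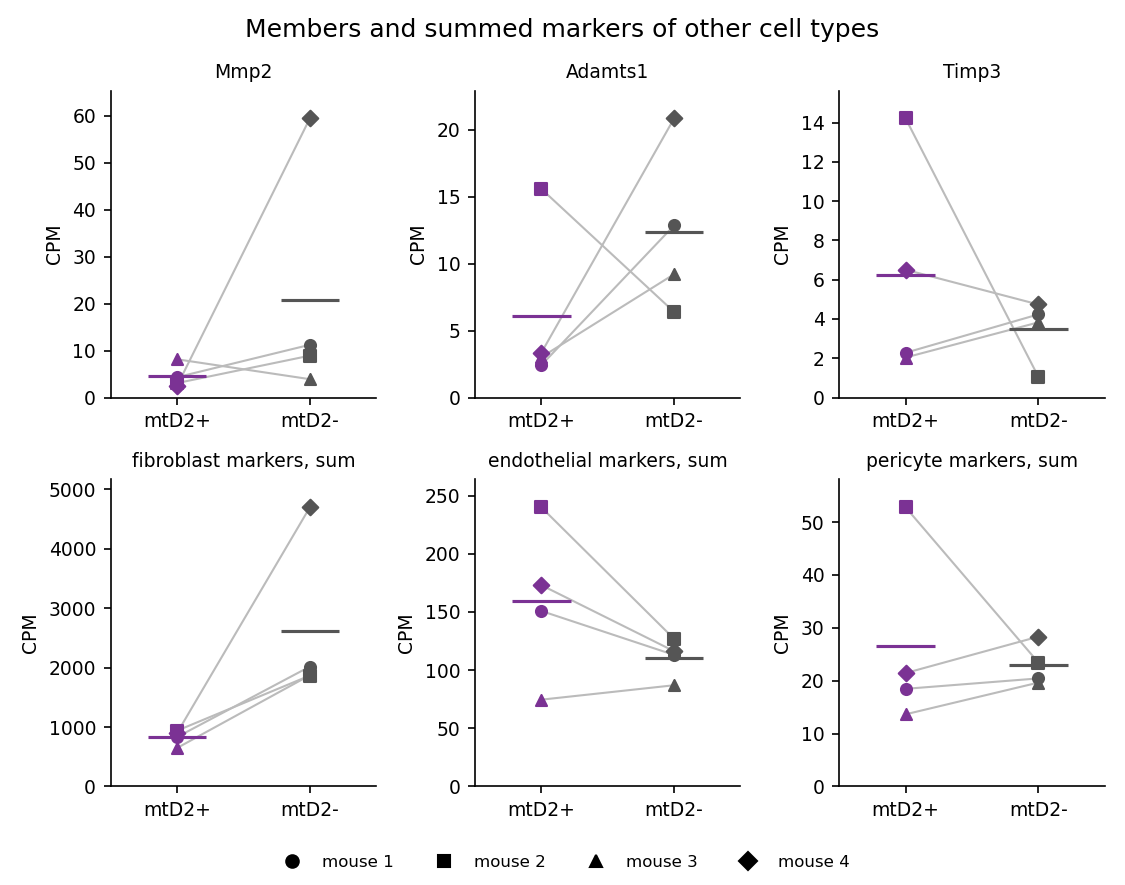
CPM of Mmp2, Adamts1 and Timp3 (top) and summed CPM of marker lists of other cell types (bottom), mtD2+ left of mtD2-, with lines joining the libraries of a mouse and bars at group means. Mouse 4 (diamonds) is highest in mtD2- for Mmp2 and the fibroblast sum, and mouse 2 (squares) is highest in mtD2+ for Adamts1, Timp3 and the endothelial and pericyte sums. Gsn makes up most of each fibroblast sum and Fabp4 most of each endothelial sum.

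Genes that control MMPs gave a few calls in both directions. Of 20 tested genes of MMP activation and control, 1 rose and 2 fell (median log2 -0.37), against 3.72% rising and 1.78% falling over all tested genes. Plau, urokinase, which makes the plasmin that activates MMP precursors, was at 241, 143, 199 and 193 CPM in mtD2+ and at 139, 76.3, 87.4 and 164 CPM in mtD2- (log2 0.78, SE 0.15, edgeR adjusted p = 0.0235). Pcolce, which speeds removal of the carboxy-terminal propeptide of procollagen, fell to 48.8 ± 12.8 CPM in mtD2+, against 112 ± 24.0 CPM in mtD2- (log2 -1.21, SE 0.16, adjusted p = 0.00486). Lrp1, the endocytic receptor that clears MMPs and ADAMTS proteases, fell by 0.49 on the log2 scale (SE 0.11, adjusted p = 0.0336). Pcolce stayed called whichever mouse was left out, Plau was called in 1 of the 4 fits without a mouse, without mouse 4, and Lrp1 in 0. Without the mouse block Plau and Lrp1 had adjusted p = 0.150 and 0.110.

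Of 13 tested ADAM and related metalloproteases, 3 rose and 0 fell (median -0.01), against 3.72% and 1.78% of all tested genes. Adam17, the sheddase of tumour necrosis factor and a target of Timp3, was at 193 ± 18.2 CPM in mtD2+ and 136 ± 16.3 CPM in mtD2- (log2 0.51, SE 0.11, adjusted p = 0.0280). Adam33 and Adam19, membrane-bound relatives, rose 0.57 and 0.45 (SE 0.12 and 0.10, adjusted p = 0.0336 and 0.0404). Scaled by library totals alone, 1 of the 3 was called (Adam17), and without any 1 mouse, or without the mouse block, none was.

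Of 16 tested transcription factors known from MMP promoters, 3 rose and 0 fell, against 3.72% and 1.78% of all tested genes. Their median was 0.31, and 0.52 without mouse 4. Stat3 rose to 601 ± 83.1 CPM in mtD2+, against 321 ± 53.6 CPM in mtD2- (log2 0.91, SE 0.10, adjusted p = 0.00323), and stayed called without any 1 mouse. Nfkb1, an NF-kB subunit, rose 0.58 and Fosl2, which binds the AP-1 element, rose 0.65 (SE 0.10 and 0.15, adjusted p = 0.0160 and 0.0377), and both lost the call without mouse 1, 2 or 3. With library totals alone the list had 3 higher and 1 lower. Without mouse 4 it had 6 higher and 0 lower, and without the mouse block 1 and 0.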

How the data were processed

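The deposited tables, 1 per library, hold counts, CPM and RPKM for each Ensembl gene. Per the submitters' processing notes reads were handled with bcl2fastq, STAR 2.0.4b, Subread and its featureCounts 1.45, with GRCm38 as the build and the strand setting not given. The deposited counts are whole reads per gene. The deposited CPM values are counts scaled to the library total, and the deposited RPKM values are those CPM values divided by gene length. Printed CPM values instead use the library total over tested genes times its TMM factor. GENCODE M21 gave a symbol to 40254 genes and none to 1134.

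The counts went into edgeR 4.0.16 under R 4.3.3 (quasi-likelihood F test, TMM, mouse as a block, its expression filter with a minimum count of 10, minimum total of 15 and proportion of 0.7), with Benjamini-Hochberg adjustment over 13933 genes. SE is the log2 fold change over the square root of F. The labels name the mouse of each library in a field of their own, apart from the replicate number, and the pairing rests on it. Deviations of a mouse's libraries from their group means correlated at 0.079, 0.101, 0.209 and 0.316 for mice 1 to 4. The highest value of each mtD2- library with the mtD2+ library of another mouse was 0.070, 0.034, 0.025 and -0.019. Alternatives were no block, other scalings, other filters, DESeq2 1.42.0, limma voom 3.58.1 and leaving out each mouse. Every tested member is named, and from each pathway list up to 4 called genes of smallest p. The members and lists were chosen with earlier results of these data known. Marker lists are given by counts and sums. S100a8, Ly6g, Tmem198b and Syn3 values were added after their members were seen.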

Additional observations from a re-analysis of the deposited data

Results flagged for a closer look

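In 7 of the 54 groups of 4 libraries, 1 library lay far from the other 3, by a criterion that flags about 1 group in 20 by chance. Adamts1 was at 15.6 CPM in mtD2+ of mouse 2, against 2.42 to 3.34 CPM in the other mtD2+ libraries. Mmp11 was at 4.12 CPM in mtD2+ of mouse 2, against 0.487 to 1.05 CPM. Timp4 was at 0 CPM in mtD2+ of mouse 3, against 2.60 to 3.12 CPM. Mmp2 was at 59.5 CPM in mtD2- of mouse 4, against 3.91 to 11.2 CPM in the other mtD2- libraries. Adamts13 was at 0 CPM in mtD2- of mouse 4, against 0.423 to 0.463 CPM. Adamts4 was at 11.9 CPM in mtD2- of mouse 3, against 1.85 to 3.33 CPM. Mmp9 was at 193 CPM in mtD2- of mouse 2, against 159 to 163 CPM.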

How the results depend on the processing

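The count of 2 called members, Adamts2 and Adamtsl4, was the same with no replicate block, with either other scaling and with the stricter filter, and these were the same genes. It was 4 with no low-count filter (with Adamts15 and Adamtsl1), 4 with limma voom (with Adamts5 and Adamtsl1), 7 with the DESeq2 Wald test (with Adamts1, Adamts5, Adamts15, Adamtsl1 and Mmp11), and 1 to 2 on leaving out a mouse. The genes then changed: Adamts2 alone without mouse 1, and Adamts1 alone without mouse 2. Without mouse 3 they were Adamts2 and Adamts5, and without mouse 4 Adamts2 and Adamtsl4. Over all genes, 767 calls became 218 with no replicate block, 1816 with DESeq2 and 166 to 555 on leaving out a mouse. Library totals gave 407 higher and 349 lower, against 519 and 248. Of 289 member values under alternatives, 11 turned sign, in 5 members that no setting called. Adamtsl5, at 0.00 with all libraries, was at 0.006 with no replicate block, 0.007 with RLE factors, 0.003 with the stricter filter, 0.007 with DESeq2 and 0.013 with limma voom, and spanned -0.141 to 0.136 on leaving out a mouse (0.051 without mouse 4). Mmp21 was at -0.015 with no replicate block. On leaving out a mouse, Adamts4 spanned -1.58 to 0.272, Mmp12 -0.050 to 0.452 and Timp3 -0.445 to 0.985. The cause was not tested. Among the other members that no setting called, leaving out a mouse gave -1.60 to -0.39 for Timp1, 0.20 to 1.18 for Mmp13, -1.68 to -0.49 for Mmp23, -1.72 to -0.60 for Mmp25, -1.62 to -0.58 for Adamts6, 0.89 to 2.27 for Adamts14 and 0.16 to 1.07 for Adamts13. At this depth 23 members had too few counts to be tested.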
